A study of Mus musculus with 8 samples.

Results

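The CD28 family is a group of 5 related receptors on T cells: Cd28, Ctla4, Icos, Pdcd1 (PD-1) and Btla. They were taken by symbol from a deposited table of 24016 genes, all 5 were found, and all 5 passed the filter on low values. RNA sequencing had been done on CD4+ T cells from mouse spleen, sorted by green fluorescence that reports Foxp3, the factor that defines regulatory T (Treg) cells. All groups carried this FoxP3GFP reporter on the NOD background, a strain that develops autoimmune diabetes spontaneously. Monoclonal Treg and monoclonal non-Treg cells came from NOD.TCRab.FoxP3GFP.Rag-/- mice, a line made by nuclear transfer. Their T cells share 1 receptor, and without a Rag gene a host makes no other lymphocyte receptors. Polyclonal Treg and polyclonal non-Treg cells came from NOD.FoxP3GFP mice, whose T cells carry many receptors. Each of the 4 groups had 2 libraries, called replicates A and B, and paired values are given for A and then B. The mice differ in line, receptor and Rag genotype at once, and comparisons between them do not separate these. Ages and numbers of animals are not given in the labels used here, and nothing says whether A and B of a group are different animals. The p-values therefore measure the spread between these libraries, which may be technical.

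These receptors set the second signal that a T cell reads beside its antigen receptor. CD28 and ICOS are activating: CD28 binds CD80 and CD86 on antigen-presenting cells, and ICOS binds ICOS ligand. CTLA-4 binds the same CD80 and CD86 more tightly than CD28 does and can strip them from the presenting cell, and Treg cells carry it constantly. PD-1 binds PD-L1 and PD-L2, BTLA binds the TNF receptor family member HVEM, and both recruit phosphatases that dampen signalling.

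The libraries held 14076330 to 19722321 reads. A count of 0 allows up to 3 reads, or 0.152 to 0.213 CPM (reads per 1000000 assigned to genes), a floor for counting error only. Every member lay far above it, with 158 reads or more in each library. The T cell label was checked with Cd3e, which measured 406 to 805 CPM. Cd4 measured 827 and 792 CPM in monoclonal Treg, against 1257 and 1360 CPM in monoclonal non-Treg libraries. In polyclonal mice Cd4 had 1076 and 1148 CPM in Treg, against 1606 and 1664 CPM in non-Treg libraries. The Treg label was checked with Foxp3, which measured 2709 and 2667 CPM in monoclonal Treg libraries, against 405 and 319 CPM in monoclonal non-Treg libraries. Foxp3 measured 2349 and 2281 CPM in polyclonal Treg, against 81.9 and 84.2 CPM in polyclonal non-Treg libraries. Transcripts of other cells differed between groups. The 8 dendritic cell markers summed to 412 and 355 CPM in monoclonal Treg, against 1583 and 1831 CPM in monoclonal non-Treg libraries. They summed to 19.5 and 15.9 CPM in polyclonal Treg, against 43.0 and 37.6 CPM in polyclonal non-Treg libraries. The 8 B cell markers summed to 66.1 and 45.9 CPM in monoclonal Treg, against 227 and 276 CPM in monoclonal non-Treg libraries. In polyclonal mice their sums were 28.2 and 46.0 CPM in Treg, against 43.8 and 66.7 CPM in non-Treg libraries. Cd22 alone had 201.5 and 244.7 CPM in monoclonal non-Treg libraries. Others of the list were low: Pax5 was at 0 in 7 of 8 libraries and Ms4a1 reached 0.645 CPM at most. The 3 CD3 genes summed to 1654 and 1695 CPM in monoclonal Treg, against 1126 and 959 CPM in monoclonal non-Treg libraries. They summed to 1289 and 1858 CPM in polyclonal Treg, against 1479 and 1534 CPM in polyclonal non-Treg libraries, so the polyclonal Treg replicates stood apart from each other.

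On the mouse build mm9 used by the table, Cd28 (NM_007642, chr1:60803232-60830203), Ctla4 (NM_009843, chr1:60965869-60972676) and Icos (NM_017480, chr1:61034758-61057164) lie in a row on the plus strand. Together they span 254 kb. Pdcd1 (NM_008798, chr1:95934882-95949130, minus strand) lies on the same chromosome, 34.9 Mb further on, and Btla (NM_177584, chr16:45224450-45253008, plus strand) is on chromosome 16. The listed transcripts are 4311, 1927, 3247, 1923 and 3224 bases long for Cd28, Ctla4, Icos, Pdcd1 and Btla. The table gives each gene as 1 transcript, so membrane and soluble forms of CTLA-4 are not told apart.

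RefSeq promoter sequences, covering the start site on GRCm38.p6, matched 3 of the 5 members. They are shown because these 3 genes moved in different ways: Ctla4 had the largest excess in Treg cells of the 5, Pdcd1 rose in monoclonal Treg cells, and Btla fell there. Capitals mark any of 4 motifs searched on both strands: GGAAA (the NFAT core), TGANTCA (AP-1), GTAAACA (forkhead) and TATAAA.
Ctla4: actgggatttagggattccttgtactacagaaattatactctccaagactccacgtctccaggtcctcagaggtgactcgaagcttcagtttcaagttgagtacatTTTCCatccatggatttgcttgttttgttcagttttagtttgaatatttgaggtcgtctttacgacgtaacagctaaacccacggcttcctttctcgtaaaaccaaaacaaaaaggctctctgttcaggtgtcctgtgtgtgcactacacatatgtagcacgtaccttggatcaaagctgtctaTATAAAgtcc
Pdcd1: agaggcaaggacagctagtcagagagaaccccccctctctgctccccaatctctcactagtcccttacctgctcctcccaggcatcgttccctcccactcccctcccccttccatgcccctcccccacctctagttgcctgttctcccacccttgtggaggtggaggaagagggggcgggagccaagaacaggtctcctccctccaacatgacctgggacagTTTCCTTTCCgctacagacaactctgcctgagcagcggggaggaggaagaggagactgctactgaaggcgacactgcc
Btla: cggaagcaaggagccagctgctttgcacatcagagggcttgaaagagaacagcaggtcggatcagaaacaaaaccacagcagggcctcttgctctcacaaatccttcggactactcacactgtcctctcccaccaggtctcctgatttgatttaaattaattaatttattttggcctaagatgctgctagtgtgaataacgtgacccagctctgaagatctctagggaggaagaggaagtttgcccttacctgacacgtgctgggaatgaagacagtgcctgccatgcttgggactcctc
The windows are chr1:60908775-60909074 (plus strand) for Ctla4, chr1:94052504-94052803 (minus strand) for Pdcd1 and chr16:45224087-45224386 (plus strand) for Btla, all on GRCm38.p6. Ctla4 held 1 GGAAA, on the opposite strand 144 bases before the start site, and 1 TATAAA after it. Pdcd1 held 2 copies of GGAAA side by side on the opposite strand, beginning 28 and 23 bases before the start site. The Btla window held none of these letters. Among 32817 promoters of the same length, 61.3% held GGAAA, 7.81% TGANTCA, 3.65% GTAAACA and 13.6% TATAAA, so GGAAA is common and a match describes the letters only.

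Cd28, the main costimulatory receptor, was lower in monoclonal than in polyclonal mice, in Treg and in non-Treg cells. It measured 251 and 265 CPM in monoclonal Treg cells, while monoclonal non-Treg cells had 195 and 186 CPM. It measured 559 and 439.8 CPM in polyclonal Treg and 585 and 651 CPM in polyclonal non-Treg replicates. All 4 monoclonal libraries lay below all 4 polyclonal ones. Changes were fitted on log2(CPM + 1) with limma over all 12881 genes kept, given as log2 fold change ± standard error, with p-values adjusted over all of them by the Benjamini-Hochberg method. Cd28 was lower in monoclonal than in polyclonal Treg cells by this test, at -0.94 ± 0.13 (adjusted p = 0.000122), and lower in monoclonal non-Treg cells than in polyclonal ones, at -1.69 ± 0.13 (adjusted p = 2.62e-07). In bulk samples, fewer cells of a type and less RNA per cell cannot be told apart.

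Between Treg and non-Treg cells Cd28 had smaller fitted changes, with opposite signs in the 2 mice. In monoclonal mice it was higher in Treg cells by 0.43 ± 0.13 (limma, adjusted p = 0.0264), but scaled to the CD3 genes it read -0.25 (adjusted p = 0.436). That call was also lost by edgeR's quasi-likelihood test (adjusted p = 0.0922) and when any 1 of the 4 monoclonal or the 2 polyclonal non-Treg libraries was left out (adjusted p = 0.0518 to 0.188). In polyclonal mice the value was -0.32 ± 0.13, with a 95% interval of -0.60 to -0.03 (limma, adjusted p = 0.200), and without polyclonal Treg replicate A it was -0.49 (adjusted p = 0.0119). The difference of the Treg effects was tested directly and came to 0.75 ± 0.19 (limma, adjusted p = 0.0217). It was 0.10 scaled to the CD3 genes (adjusted p = 0.858). Its adjusted p was 0.0519 by edgeR and 0.0650 to 0.145 without monoclonal Treg replicate B, either monoclonal non-Treg or either polyclonal non-Treg replicate.

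Ctla4, the inhibitory competitor of Cd28, separated Treg from non-Treg cells in both mice, and no difference between the mice passed the test. It measured 676 and 760.1 CPM in monoclonal Treg, against 106 and 86.2 CPM in monoclonal non-Treg libraries. It measured 632 and 591 CPM in polyclonal Treg, against 109 and 106 CPM in polyclonal non-Treg replicates. The 4 Treg libraries and the 4 non-Treg libraries did not overlap. The fitted Treg effects were 7.44-fold in monoclonal mice, with a 95% interval of 6.14-fold to 9.03-fold (limma, adjusted p = 7.93e-09), and 5.65-fold in polyclonal mice, with an interval of 4.66-fold to 6.85-fold (adjusted p = 3.37e-08). The difference of these effects was 0.40 ± 0.18 on the log2 scale, with a 95% interval of 0.0037 to 0.79 (limma, adjusted p = 0.206). Between the mice, Ctla4 differed by 0.23 ± 0.13 in Treg cells, with an interval of -0.05 to 0.51 (limma, adjusted p = 0.225). In non-Treg cells it differed by -0.17 ± 0.13, with an interval of -0.45 to 0.11 (adjusted p = 0.434), and this value and the difference of the effects changed sign when scaled to the CD3 genes.

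**Figure D1:**
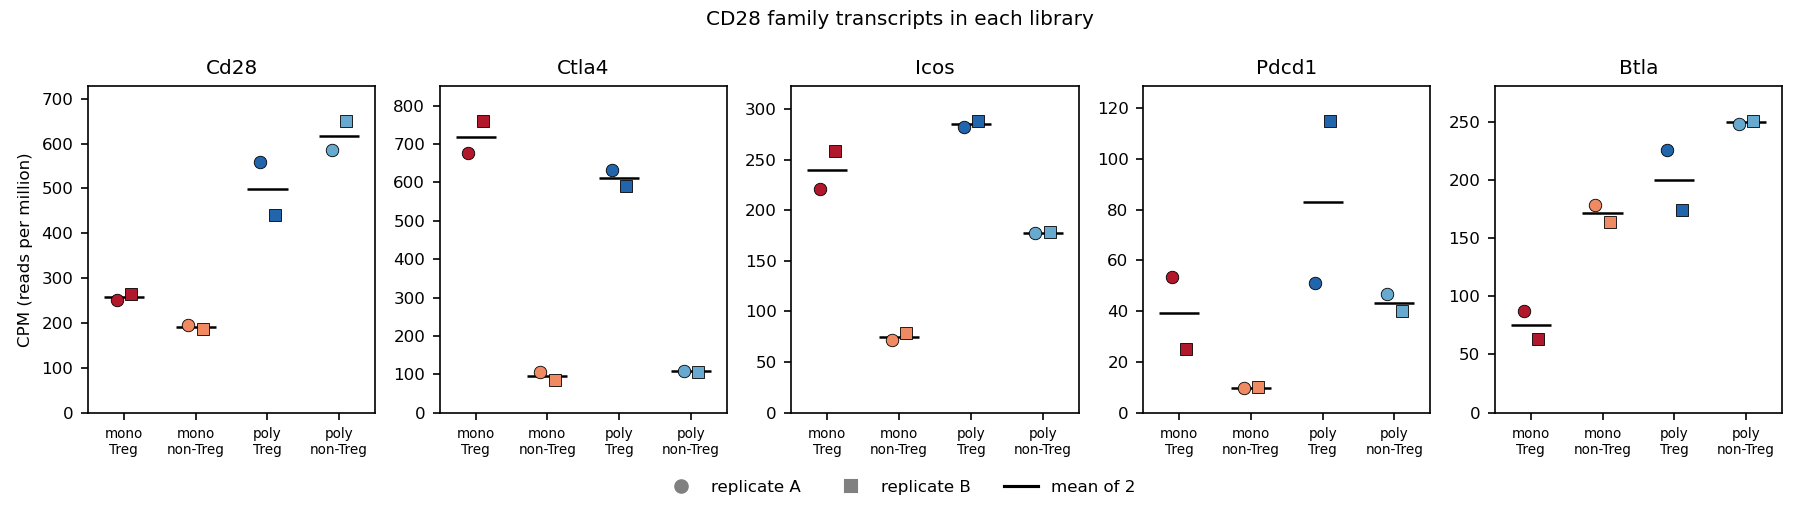
CPM of each CD28 family gene in the 8 libraries, with circles for replicate A, squares for replicate B and bars for the mean of 2; mono and poly stand for monoclonal and polyclonal mice, and each panel has its own axis from 0. Ctla4 separates Treg from non-Treg libraries, Cd28 separates monoclonal from polyclonal libraries, and Pdcd1 has the most unequal replicates, in both Treg groups.

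Icos, the second activating member, was higher in Treg cells of both mice and lowest in monoclonal non-Treg cells. It measured 221 and 258 CPM in monoclonal Treg, against 71.8 and 78.6 CPM in monoclonal non-Treg libraries. It measured 282 and 288 CPM in polyclonal Treg, against 177 and 178 CPM in polyclonal non-Treg replicates. No group overlapped another. Icos rose in monoclonal Treg cells by 1.66 ± 0.13 (limma, adjusted p = 9.66e-07) and in polyclonal Treg cells by 0.68 ± 0.13 (adjusted p = 0.00338). The polyclonal call was lost without polyclonal non-Treg replicate A or B (adjusted p = 0.0576 and 0.0574) and when scaled to the CD3 genes (adjusted p = 0.217). The Treg effect was larger in monoclonal mice, by 0.98 ± 0.18 (limma, adjusted p = 0.00392), or by 0.33 scaled to the CD3 genes (adjusted p = 0.485). Icos was lower in monoclonal non-Treg cells than in polyclonal ones, at -1.23 ± 0.13 (limma, adjusted p = 5.18e-06). In Treg cells the same comparison gave -0.26 ± 0.13, with a 95% interval of -0.53 to 0.02 (adjusted p = 0.169).

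Pdcd1, the gene of PD-1, had the lowest CPM of the 5 in every library and the most unequal replicates. It measured 53.4 and 25.0 CPM in monoclonal Treg, against 9.54 and 10.2 CPM in monoclonal non-Treg libraries. It measured 51.1 and 115 CPM in polyclonal Treg, against 46.6 and 40.0 CPM in polyclonal non-Treg replicates. The 2 monoclonal Treg libraries differed 2.14-fold and the 2 polyclonal Treg libraries 2.25-fold, while the non-Treg pairs differed 1.07-fold and 1.16-fold. Counts of 158 to 2268 reads lay behind these values. The 6 myeloid markers summed to 924 and 226 CPM in the monoclonal Treg pair, mostly S100a8 and S100a9, and to 16.0 and 11.2 CPM in the polyclonal Treg pair. Replicate A was higher for Pdcd1 and for the sum of these markers in monoclonal Treg cells. In polyclonal Treg cells Pdcd1 was higher in B and the sum in A, with S100a8 and S100a9 at 0.852 CPM or less. The part of these markers in the Pdcd1 values was not tested.

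Pdcd1 rose in monoclonal Treg cells by 1.79 ± 0.35 (limma, adjusted p = 0.00209; 0.0800 with every gene of the table fitted). In polyclonal mice the Treg effect was 0.82 ± 0.35, with a 95% interval of 0.06 to 1.57 (limma, adjusted p = 0.224), and it was 1.39 without polyclonal Treg replicate A (adjusted p = 0.0188) and 0.24 without replicate B (adjusted p = 0.769). The difference of the 2 effects was 0.98 ± 0.50 (limma, adjusted p = 0.258), and with 1 library left out it ran from 0.40 without polyclonal Treg replicate A (adjusted p = 0.630) to 1.56 without replicate B (adjusted p = 0.0359). Leaving out monoclonal Treg replicate A or B gave 0.45 or 1.51 (adjusted p = 0.598 and 0.0826). Pdcd1 was lower in monoclonal non-Treg cells than in polyclonal ones, at -2.02 ± 0.35 (limma, adjusted p = 0.000724; 0.0606 with every gene fitted), and no library of one group reached the other. In Treg cells the libraries of the 2 mice overlapped and the value was -1.05 ± 0.35 (limma, adjusted p = 0.0450). That call rested on few libraries: it was lost in 6 of the 8 fits with 1 library left out, all but those without monoclonal Treg replicate A or polyclonal Treg replicate A (adjusted p = 0.0630 to 0.362), and the value was -0.51 without monoclonal Treg replicate B and -0.47 without polyclonal Treg replicate B. By edgeR, which called 20.5% of genes in this comparison, its adjusted p was 0.0812, and in a fit of only the 2 Treg groups it was 0.101.

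Btla, an inhibitory receptor also made by B cells and dendritic cells, was lowest in monoclonal Treg cells. It measured 87.7 and 62.9 CPM in monoclonal Treg, against 178 and 164 CPM in monoclonal non-Treg libraries. It measured 226 and 174 CPM in polyclonal Treg, against 248 and 251 CPM in polyclonal non-Treg replicates. Monoclonal Treg libraries lay below every other library. Btla fell in monoclonal Treg cells by 1.19 ± 0.17 on the log2 scale (limma, adjusted p = 0.000144), to 0.437 times the monoclonal non-Treg level. Dendritic cell markers moved the same way, with 6 of 8 lower and 0 higher in monoclonal Treg libraries and a median of -1.99, and their part in the Btla result was not tested. The 8 B cell markers summed to 66.1 and 45.9 CPM in monoclonal Treg, against 227 and 276 CPM in monoclonal non-Treg libraries. Most of this was Cd22, with 53.0 and 42.1 CPM in monoclonal Treg, against 201.5 and 244.7 CPM in monoclonal non-Treg libraries, while Cd79a, a B cell receptor subunit, reached 1.16 CPM at most in these 4 libraries. In polyclonal Treg libraries 2 of the 8 dendritic cell markers were lower and 0 higher, with a median of -0.97, and 2 were at 0 in both libraries. The Btla Treg effect there was -0.33 ± 0.17, with a 95% interval of -0.68 to 0.03 (limma, adjusted p = 0.321).

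The Btla Treg effect was lower in monoclonal than in polyclonal mice, at -0.87 ± 0.24 (limma, adjusted p = 0.0340), and at -1.51 scaled to the CD3 genes (adjusted p = 0.0195). That call was lost in 6 of 8 fits with 1 library left out, all but those without monoclonal Treg replicate A or polyclonal Treg replicate B (adjusted p = 0.0633 to 0.147). Btla was lower in monoclonal than in polyclonal Treg cells, at -1.41 ± 0.17 (limma, adjusted p = 2.84e-05). In non-Treg cells it was lower by a smaller amount, -0.54 ± 0.17 (limma, adjusted p = 0.0336). This value was -0.0077 scaled to the CD3 genes (adjusted p = 0.987), and the call was lost with TMM scaling, by edgeR and without any 1 of the 4 non-Treg libraries (adjusted p = 0.0778, 0.0993, and 0.117 to 0.243).

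**Figure D2:**
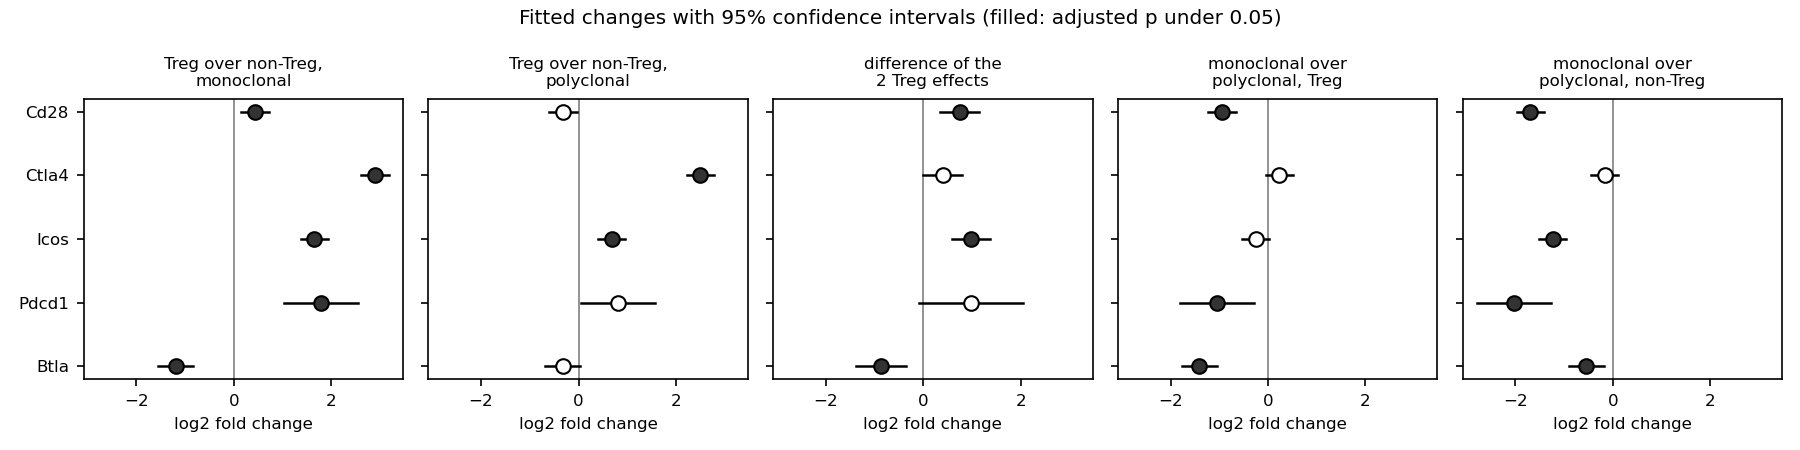
Log2 fold change of each member in the 5 comparisons, as limma fitted it on log2(CPM + 1), with lines for the 95% confidence interval and filled points for an adjusted p under 0.05. Ctla4 lies far to the right in both Treg effects, and 4 members lie left of 0 in monoclonal against polyclonal non-Treg cells with filled points; Cd28 in the monoclonal Treg effect and Btla in the last panel lose their calls when scaled to the CD3 genes, where the Cd28 value turns negative.

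Counted over the family, 4 members rose and 1 fell in monoclonal Treg cells, where 10.8% and 13.6% of the 12881 genes tested rose and fell (24.4% either way). In polyclonal Treg cells 2 members rose and 0 fell by limma, where 4.63% and 3.28% of genes did (7.9% either way). Pdcd1 and Cd28, which did not pass there, had unadjusted p-values under 0.05, and edgeR, which called 7.11% of genes either way, also called 0 members lower. The difference of the Treg effects passed for 3 members, 2 higher and 1 lower in monoclonal mice, where 3.64% and 5.56% of genes were (9.2% either way). Monoclonal Treg cells had 3 members lower than polyclonal Treg cells and 0 higher, where 12.1% of genes were lower (24.2% either way). Monoclonal non-Treg cells had 4 lower and 0 higher, where 7.35% of genes were lower (19.4% either way). In neither comparison of the mice was a member higher at an unadjusted p under 0.05 or by edgeR. The median change over the 5 members was 1.66 in the monoclonal and 0.68 in the polyclonal Treg effect, against -0.02 and 0.0022 over all genes. It was -0.94 in Treg cells and -1.23 in non-Treg cells between the mice, against -0.03 and -0.07 over all genes. The 2 Treg effects do not share libraries, but the difference and the comparisons between the mice use the same ones.

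Dividing CPM by transcript length puts the members on 1 scale. Their summed level was 532 and 568 CPM per kb in monoclonal Treg, against 182 and 168 CPM per kb in monoclonal non-Treg libraries. It was 641 and 611 CPM per kb in polyclonal Treg, against 348 and 359 CPM per kb in polyclonal non-Treg replicates. Ctla4 made up 66.0% and 69.5% of this sum in monoclonal Treg, against 30.1% and 26.6% in monoclonal non-Treg libraries. It made up 51.2% and 50.2% in polyclonal Treg, against 16.2% and 15.3% in polyclonal non-Treg libraries. Cd28 held 10.9% and 10.8% of the sum in monoclonal Treg libraries, against 24.8% and 25.6% in monoclonal non-Treg libraries. Its share was 20.2% and 16.7% in polyclonal Treg, against 39.0% and 42.0% in polyclonal non-Treg libraries. Polyclonal non-Treg cells were thus the only group of the 4 in which Cd28 had the highest level per kb in both libraries. In monoclonal non-Treg cells Ctla4, Btla and Cd28 stood close together, at means of 49.8, 53.1 and 44.2 CPM per kb.

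The balance of Ctla4 against Cd28, which compete for the same ligands, can be read within each library and does not depend on the scaling between libraries. The ratio of Ctla4 to Cd28 per kb was 6.03 and 6.43 in monoclonal Treg, against 1.21 and 1.04 in monoclonal non-Treg libraries. It was 2.53 and 3.01 in polyclonal Treg, against 0.415 and 0.364 in polyclonal non-Treg replicates. No 2 groups overlapped, and the order ran from monoclonal Treg over polyclonal Treg and monoclonal non-Treg to polyclonal non-Treg cells. These ratios are given as a description, with no test. The ratio of Icos to Cd28 was 1.17 and 1.29 in monoclonal Treg, against 0.488 and 0.561 in monoclonal non-Treg libraries. It was 0.669 and 0.870 in polyclonal Treg, against 0.402 and 0.364 in polyclonal non-Treg libraries. Btla to Cd28 was 0.468 and 0.318 in monoclonal Treg and 1.22 and 1.18 in monoclonal non-Treg libraries. In polyclonal mice it was the same within 0.06 in all 4 libraries, at 0.540 and 0.530 in Treg and 0.567 and 0.515 in non-Treg cells.

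**Figure D3:**
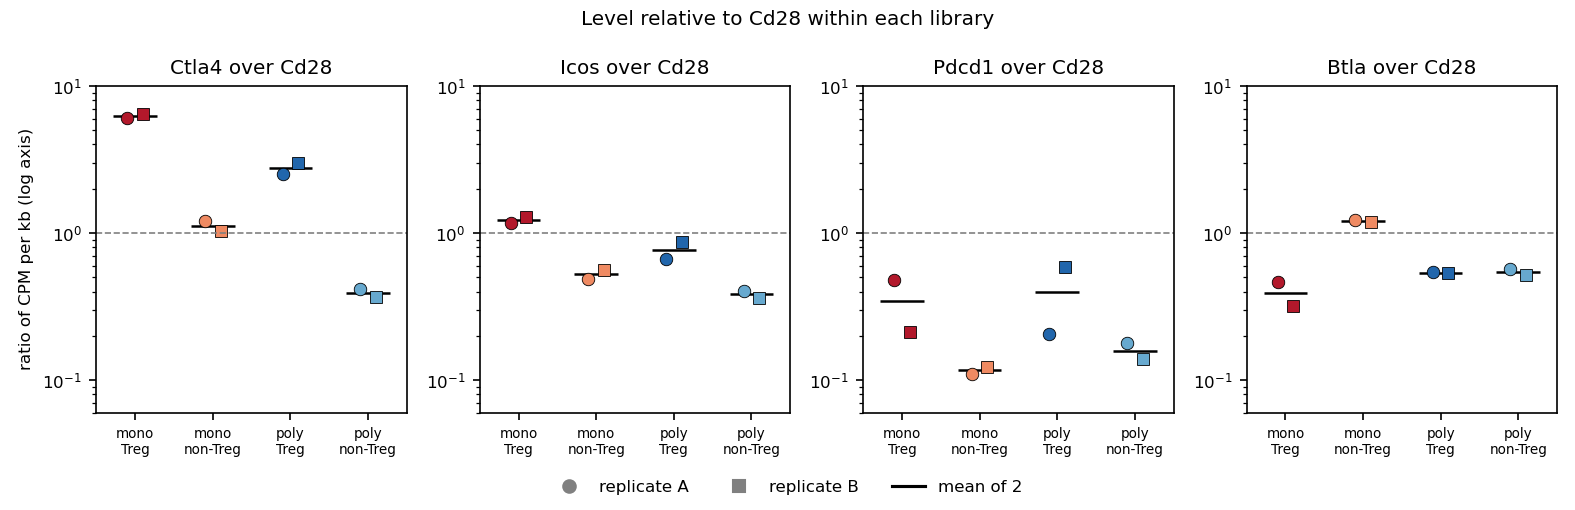
Ratio of each member's CPM per kb to that of Cd28 in the same library, on a log axis, with circles for replicate A, squares for replicate B, bars for the mean of 2 and a dashed line at 1. Ctla4 exceeds Cd28 about 6-fold in monoclonal Treg libraries and lies below it in polyclonal non-Treg libraries, while Btla exceeds Cd28 only in monoclonal non-Treg libraries.

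Scaling to the summed CD3 genes set each library to the same T cell receptor transcript level. Not every T cell marker followed the CD3 sum. In monoclonal Treg cells 4 of 6 such markers rose, where 10.8% of all genes did. The 6 include the CD3 genes themselves, and Cd3e and Cd3g were among those that rose. Outside the CD3 genes, Cd2 and Cd5 rose by 1.25 ± 0.15 and 0.61 ± 0.12 on the log2 scale. Cd4 fell there by 0.69 ± 0.10 on the log2 scale (limma, adjusted p = 0.000271). The CD3 scaling shifted the median of all genes by -0.64 in the monoclonal Treg effect, -0.03 in the polyclonal one, -0.60 in their difference, -0.10 between the mice in Treg and 0.50 in non-Treg cells. Among all genes, 369 were then higher and 5640 lower in monoclonal Treg cells, against 1396 and 1747 as deposited. Between the mice in non-Treg cells 2798 were higher and 126 lower, against 1558 and 947, and for the difference of effects 80 were higher and 1853 lower, against 469 and 716. Ctla4, Icos and Pdcd1 stayed higher in monoclonal Treg cells, at 2.21, 0.97 and 1.15, and Btla lower at -1.88. Subtracting the shifted median of all genes gave 0.40 for Cd28 in monoclonal Treg cells. This step largely undoes the scaling, so the value returns near the deposited 0.43. Between the mice, Cd28 stayed lower in monoclonal Treg and non-Treg cells, at -1.06 and -1.16 (limma, adjusted p = 0.0123 and 0.00412), as did Pdcd1, at -1.15 and -1.53. Icos stayed lower in monoclonal non-Treg cells at -0.70 (limma, adjusted p = 0.0465).

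**Figure D4:**
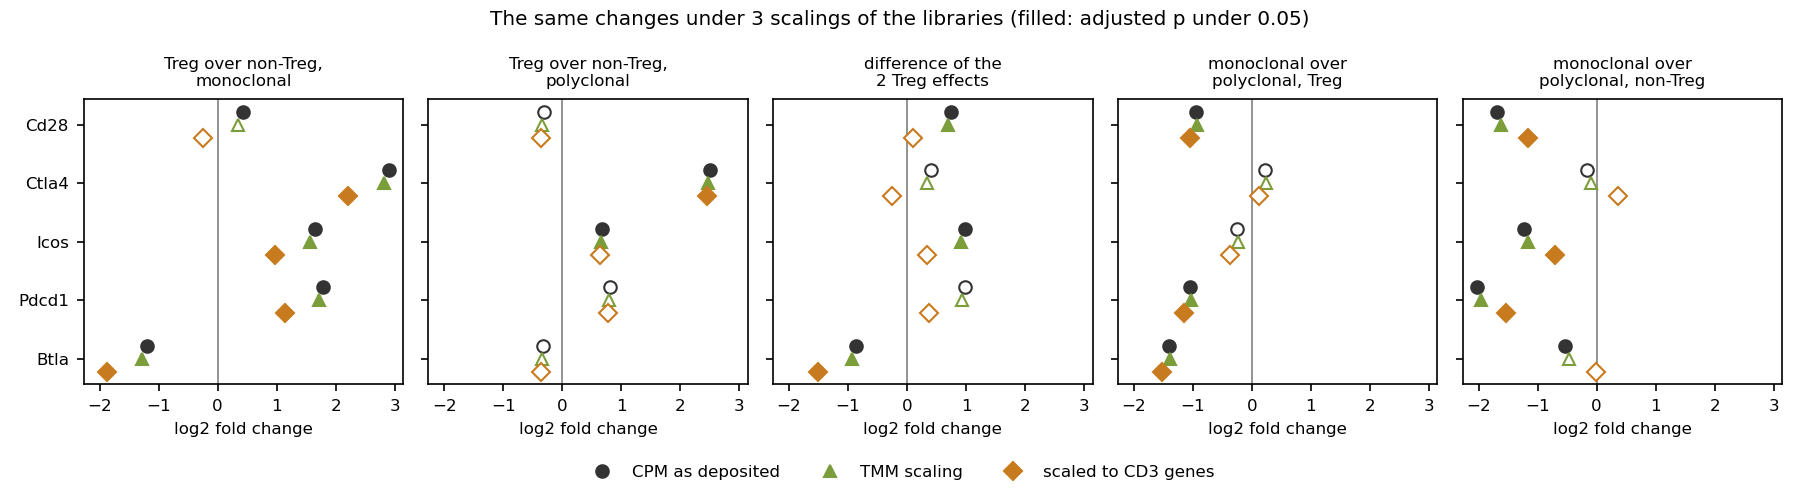
Log2 fold change of each member in the 5 comparisons with CPM as deposited (circles), after TMM scaling (triangles) and scaled to the CD3 genes (diamonds), filled where the adjusted p is under 0.05. TMM scaling lies within 0.1 of the deposited scale, whereas the CD3 scaling moves every member to the left in the monoclonal Treg effect, takes Cd28 there from 0.43 to -0.25, and moves every member to the right in monoclonal against polyclonal non-Treg cells, where Ctla4 changes sign.

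Pdcd1, Icos and Btla are also known from follicular helper T cells, and 4 of the 5 tested markers of these cells were lower in monoclonal non-Treg libraries than in the polyclonal ones, where 7.35% of all genes were. By limma 0 were higher, also at an unadjusted p under 0.05. Il21, their main cytokine, was at 0 in all 4 monoclonal libraries and measured 0.995 and 0.558 CPM in polyclonal Treg and 19.9 and 22.5 CPM in polyclonal non-Treg libraries. Cxcr5, their homing receptor, measured 10.1 and 7.17 CPM in monoclonal Treg and 15.5 and 12.8 CPM in monoclonal non-Treg libraries. In polyclonal mice it measured 76.4 and 109 CPM in Treg and 61.0 and 75.3 CPM in non-Treg libraries. Bcl6, their defining transcription factor, had the opposite sign in non-Treg cells, with 70.4 and 79.7 CPM in monoclonal and 55.0 and 61.2 CPM in polyclonal libraries (0.36 ± 0.18, limma, adjusted p = 0.187). The 6 markers summed to 503 to 627 CPM in monoclonal and 727 to 1185 CPM in polyclonal libraries, most of it Slamf6, and their part in the lower Pdcd1 and Icos of monoclonal cells was not tested.

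The transcripts of the ligands differed between the groups. Cd86, a ligand of CD28 and CTLA-4, measured 26.4 and 23.9 CPM in monoclonal Treg, against 81.7 and 82.8 CPM in monoclonal non-Treg libraries. In polyclonal mice the direction was the opposite, with 28.8 and 32.8 CPM in Treg, against 5.95 and 10.97 CPM in non-Treg replicates. Cd86 fell in monoclonal Treg cells by 1.67 ± 0.26 on the log2 scale and rose in polyclonal Treg cells (limma, adjusted p = 0.000304 and 0.000351), and the difference of the effects was -3.47 ± 0.36 (limma, adjusted p = 5.92e-05). Cd80, its partner ligand, measured 26.1 and 34.1 CPM in monoclonal Treg and 26.0 and 29.1 CPM in monoclonal non-Treg libraries, a change of 0.11 ± 0.30 (limma, adjusted p = 0.825). In polyclonal Treg cells Cd80 rose by 1.43 ± 0.30 (limma, adjusted p = 0.00666), a call lost without polyclonal non-Treg replicate A or B (adjusted p up to 0.0652).

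Icosl, the ligand of ICOS, measured 114 and 117 CPM in monoclonal Treg and 233 and 217 CPM in monoclonal non-Treg libraries. It measured 9.31 and 14.6 CPM in polyclonal Treg and 9.11 and 6.97 CPM in polyclonal non-Treg libraries. It was higher in monoclonal cells by 3.20 ± 0.22 in Treg and 4.65 ± 0.22 in non-Treg cells (limma, adjusted p = 1.13e-07 and 1.63e-09). Of the PD-1 ligands, Pdcd1lg2 (PD-L2) rose in polyclonal Treg cells by 1.74 ± 0.24 (limma, adjusted p = 0.000269). Cd274 (PD-L1) measured 385 and 229 CPM in monoclonal Treg, against 244 and 233 CPM in monoclonal non-Treg libraries, and 219 and 187 CPM in polyclonal Treg, against 127 and 101 CPM in polyclonal non-Treg replicates. Replicate A of monoclonal Treg cells was its highest library. Cd274 rose in polyclonal Treg cells by 0.83 ± 0.20 (limma, adjusted p = 0.0166), a call lost in 5 of the 8 fits with 1 library left out and scaled to the CD3 genes (adjusted p up to 0.241, and 0.203).

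Tnfrsf14 encodes HVEM, the ligand of BTLA, which T cells themselves carry, and its group means had the same order as those of Btla. It measured 36.0 and 45.5 CPM in monoclonal Treg, against 101 and 96.7 CPM in monoclonal non-Treg libraries. In polyclonal mice it measured 123 and 87.3 CPM in Treg, against 175 and 159 CPM in non-Treg replicates. Tnfrsf14 fell in monoclonal Treg cells by 1.27 ± 0.18 on the log2 scale (limma, adjusted p = 0.000142) and was lower in monoclonal than in polyclonal Treg cells, at -1.33 ± 0.18 (adjusted p = 7.76e-05). In polyclonal Treg cells it fell by 0.68 ± 0.18 (limma, adjusted p = 0.0275), a call lost in 5 of the 8 fits with 1 library left out and scaled to the CD3 genes (adjusted p up to 0.266, and 0.242). Cd160, another partner of HVEM, had 0 and 0.452 CPM in monoclonal Treg, against 4.38 and 3.999 CPM in monoclonal non-Treg libraries (limma, adjusted p = 0.00240). Over the 6 ligands, 1 rose and 3 fell in monoclonal Treg cells, with a median of -0.42, where 10.8% of all genes rose and 13.6% fell. The 1 was Pdcd1lg2, at 0.77, a call lost without monoclonal Treg replicate B or either monoclonal non-Treg replicate (limma, adjusted p up to 0.209), and it read 0.11 with CD3 scaling. Icosl, 1 of the 3, lost its call without either monoclonal non-Treg replicate (adjusted p up to 0.0717). In polyclonal Treg cells 4 rose and 1 fell, with a median of 1.13, where 4.63% and 3.28% of all genes did. In monoclonal against polyclonal non-Treg cells 5 were higher and 1 lower, with a median of 2.26, where 12.1% and 7.35% of all genes were. With CD3 scaling these counts were 0 and 3, 3 and 0, and 5 and 0. Cd80, Cd86, Icosl and Pdcd1lg2 are typical of presenting cells. Dendritic cell markers were high in the monoclonal libraries, and the part of such cells in the ligand results was not tested. In the polyclonal Treg effect 4 of 6 ligands were higher, with a median of 1.13. Of 8 dendritic cell markers 0 were higher by limma, also at an unadjusted p under 0.05, with a median of -0.97. Their levels were low there, with Batf3 and Clec9a at 0 in both polyclonal Treg libraries. The 6 myeloid markers had a median of 0.33 and 0 passed, with Csf1r higher at an unadjusted p under 0.05 (0.61 ± 0.28, limma). Of 5 B cell markers tested, Cd79b was higher at 2.05 ± 0.45 (limma, adjusted p = 0.0103), 1 was lower and the median was -0.18. The part of any of these cells in the polyclonal ligand values was not tested.

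**Figure D5:**
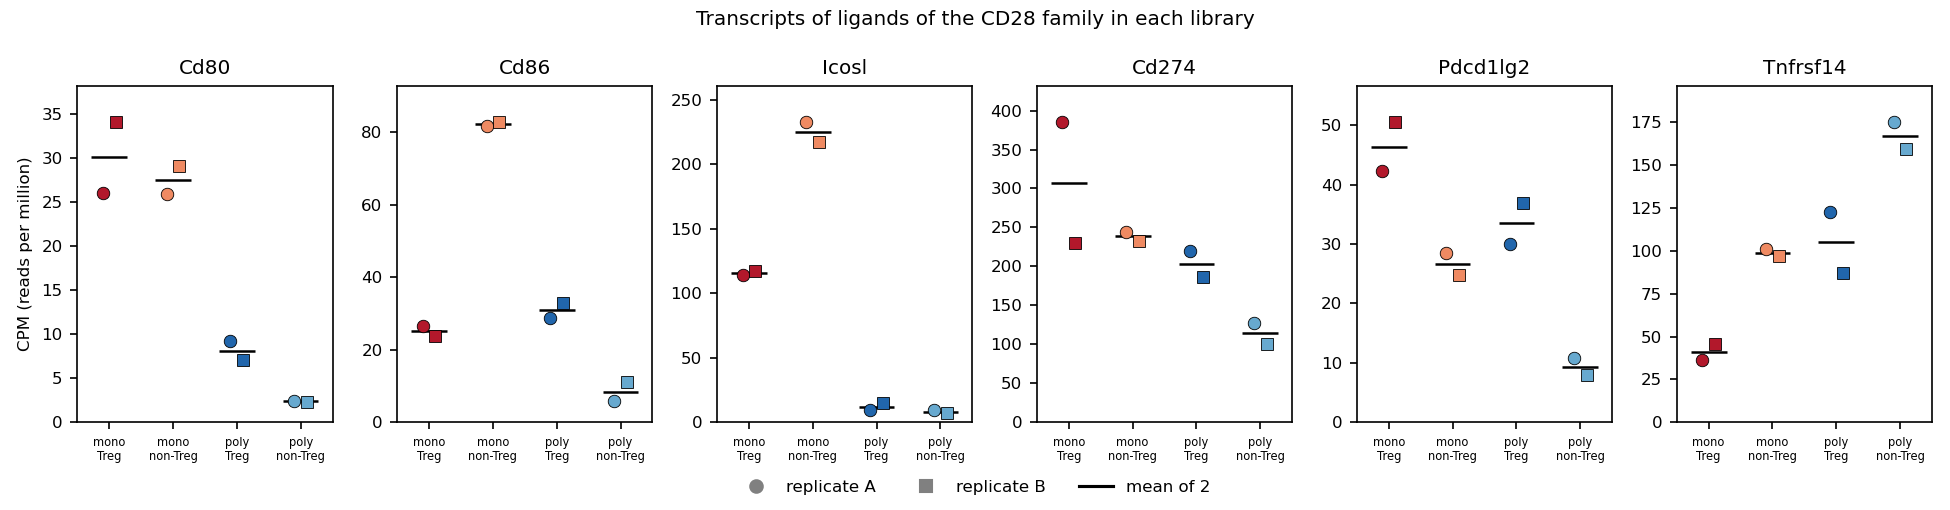
CPM of the 6 ligand genes in the 8 libraries, with circles for replicate A, squares for replicate B and bars for the mean of 2, each panel with its own axis from 0. Cd86 and Icosl are highest in monoclonal non-Treg libraries, where dendritic cell markers are also highest, and Tnfrsf14 is lowest in monoclonal Treg libraries, as is Btla.

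Downstream of the receptors, 3 of 15 proximal signalling genes rose and 5 fell in monoclonal Treg cells (median 0.03), where 10.8% of all genes rose and 13.6% fell. Among those that fell was the adaptor Grap2 (Gads), at -0.84 ± 0.13 (limma, adjusted p = 0.000375). In polyclonal Treg cells 0 rose by limma or edgeR, and 5 fell by limma and 4 by edgeR (median -0.15), where 3.28% of all genes fell by limma. Rltpr (Carmil2), a scaffold that CD28 signalling needs, was the 1 that was higher at an unadjusted p under 0.05, at 0.27 ± 0.12. Grap2 fell there by 0.63 ± 0.13 and the PI3-kinase subunit Pik3cd by 0.58 ± 0.10. Without polyclonal non-Treg replicate A, both lost their calls (limma, adjusted p = 0.125 and 0.0514). Scaled to the CD3 genes, 0 of 15 rose and 8 fell in monoclonal Treg cells, and 0 changed in polyclonal Treg cells, with both named polyclonal values still negative.

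Between the mice, 2 of 15 were higher and 7 lower in monoclonal Treg cells, and the same numbers in monoclonal non-Treg cells. Of all genes, 12.1% were higher in each comparison, and 12.1% were lower in Treg and 7.35% in non-Treg cells. Scaled to the CD3 genes the counts were 1 higher and 4 lower in Treg cells, and 5 higher and 0 lower in non-Treg cells, where this scaling moved the median of all genes by 0.50. The kinase Fyn was lower in monoclonal Treg cells at -0.96 ± 0.11, while Malt1, which carries antigen receptor signals to NF-kB, was higher at 1.02 ± 0.14 (limma, adjusted p = 1.84e-05 and 0.000111). Lck, the kinase that starts receptor signalling, was lower in monoclonal non-Treg cells at -0.86 ± 0.13, and at -0.32 scaled to the CD3 genes (limma, adjusted p = 0.000185 and 0.302). Of the phosphatases, Ptpn6 (SHP-1) fell in monoclonal Treg cells by 1.28 ± 0.13 and Ptpn11 (SHP-2), which PD-1 recruits, fell in polyclonal Treg cells by 0.67 ± 0.13 (limma, adjusted p = 1.06e-05 and 0.00380). Ptpn11 lost that call without polyclonal non-Treg replicate A or B (adjusted p up to 0.0677) and with CD3 scaling (adjusted p = 0.195). Ppp2ca, a catalytic subunit of phosphatase 2A, measured 175 to 233 CPM in the 8 libraries and passed in none of the 5 comparisons.

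None of 6 genes that carry CTLA-4 protein to and from the surface passed in either Treg effect by limma or edgeR, where 24.4% of all genes passed in monoclonal and 7.9% in polyclonal mice by limma. At an unadjusted p under 0.05 were the adaptor Ap1m1 in monoclonal mice, at 0.34 ± 0.13, and in polyclonal mice Lrba, which protects CTLA-4 from breakdown, at 0.31 ± 0.13, and the adaptor Trat1, at -0.50 ± 0.20. Of 5 regulators of member transcripts, 2 rose in both Treg effects, where 10.8% of all genes rose in monoclonal and 4.63% in polyclonal mice. Tox, which drives PD-1 in exhausted T cells, was higher by 1.24 ± 0.18 in monoclonal and 1.10 ± 0.18 in polyclonal Treg cells (limma, adjusted p = 0.000227 and 0.00130; 0.0653 and 0.0151 scaled to the CD3 genes). Zc3h12a (Regnase-1), a ribonuclease whose known targets include Icos transcripts, rose by 0.56 ± 0.16 and 0.59 ± 0.16 (limma, adjusted p = 0.0189 and 0.0317). With CD3 scaling Zc3h12a read -0.12 in monoclonal Treg cells, and its calls were lost when either monoclonal non-Treg replicate or the replicate B of the Treg cells compared was left out (adjusted p up to 0.160 and 0.313). The polyclonal call was also lost without either polyclonal non-Treg replicate.

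The genes most like each member over the 8 libraries, by Pearson's r on log2(CPM + 1), were taken from 10635 genes with a mean of at least 2 on that scale. The points share groups and depth, so these are descriptions. For Ctla4 they were the Treg transcription factor Ikzf2 (r = 0.991), the inhibitory receptor Tigit (0.988) and the cell cycle factor E2f2 (0.987). For Cd28 they were Inpp1 (0.989), the transcription factor Ets1 (0.989) and Sp100 (0.986). For Btla they were Il11ra1 (0.993), Setd1b (0.992) and Foxp1 (0.988), a transcription factor that keeps T cells quiescent. Foxp1 averaged 109.8 CPM in monoclonal Treg libraries, 242 CPM in their non-Treg counterparts, 278 CPM in polyclonal Treg libraries and 331 CPM in theirs, the same order as Btla. For Icos they were Ptplad1 (0.989), Spock2 (0.987) and Gimap9 (0.985), and for Pdcd1 Tgoln2 (0.988), Cyb5b (0.982) and Tonsl (0.979).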

How the data were processed

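Messenger RNA had been selected with poly-dT beads and read as single ends of 50 bases with strand kept, per the labels' protocols. Per the submitters' processing notes, the build was mm9 and the tools included STAR 2.4.1a, HOMER 4.7, edgeR, Trimmomatic 0.33, FastQC 0.10.1 and CASAVA 1.8.2, whose roles are not listed. The deposited values are CPM, made by the authors from reads assigned to genes, and each library sums to 1000000. All values (100%) were whole multiples of 1 read within 0.01 read, so reads were recovered for an alternative test. The unit required limma 3.58.1 (R 4.3.3) on log2(CPM + 1), with trend and robust spread, 1 mean per group, 4 residual degrees of freedom and a threshold of 0.05 on the 2-sided adjusted p. Genes with 1 CPM in at least 2 libraries were kept (12881). The fit was tested on simulated data.

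Members and lists were chosen with earlier results of these data known. The named genes were the members, the ligands and phosphatases, up to 3 of the most changed genes of each other list (some are not reported here), the 3 genes most like each member, and called neighbours within 500 kb. Alternatives were another pseudocount, no filter, TMM or CD3 scaling, only the groups compared, a replicate block, edgeR 4.0.16 on the reads, and each library left out. The treatment of reads with several matches is not stated in the labels.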

Additional observations from a re-analysis of the deposited data

Results flagged for a closer look

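For 3 members the Treg effect differed between monoclonal and polyclonal mice by a direct test of the difference (limma, adjusted over all genes). Of all genes tested, 9.2% passed in this comparison. For Icos the difference was 0.98 on the log2 scale (adjusted p = 0.00392), with Treg above non-Treg libraries in both mice. For Cd28 it was 0.75 (adjusted p = 0.0217), with monoclonal Treg libraries above and polyclonal Treg libraries below their non-Treg counterparts. For Btla it was -0.87 (adjusted p = 0.0340), with Treg below non-Treg libraries in both mice. The Cd28 call was lost by edgeR (adjusted p = 0.0519). With 1 library left out, the Cd28 and Btla values ran from 0.58 to 0.92 and from -1.10 to -0.63. Both calls were lost in some of these fits. The monoclonal non-Treg libraries, which enter all 3 values, had 1583 and 1831 CPM of dendritic cell markers and the lowest CD3 sums. They also had 405 and 319 CPM of Foxp3, against 81.9 and 84.2 CPM in polyclonal non-Treg libraries. The part of these traits was not tested. Scaled to the CD3 genes the differences were 0.33 for Icos, 0.10 for Cd28 and -1.51 for Btla, where this scaling moved the median of all genes by -0.60. Subtracting that median gave 0.97 for Icos, 0.74 for Cd28 and -0.88 for Btla. This step largely undoes the scaling, so these values return near the deposited ones and are no separate support.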

How the results depend on the processing

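Of 25 member results, 11 kept their direction and their side of the threshold under every alternative run, among them Ctla4 in both Treg effects, Icos and Btla in the monoclonal Treg effect, and Cd28 between the mice. The cause of the changes in the other 14 was not tested. With TMM scaling Cd28 in the monoclonal Treg effect (0.35) and Btla between the mice in non-Treg cells (-0.46) lost their calls. With edgeR these 2 (0.35 and -0.46), the Cd28 difference of effects (0.68) and Pdcd1 between the mice in Treg cells (-1.06) did. Scaled to the CD3 genes, Cd28 in the monoclonal Treg effect (-0.25), the Ctla4 difference of effects (-0.25) and Ctla4 between the mice in non-Treg cells (0.36) reversed. Icos in the polyclonal Treg effect (0.64), the Cd28 and Icos differences (0.10 and 0.33) and Btla between the mice in non-Treg cells (-0.0077) lost their calls. Pdcd1 between the mice in Treg cells lost its call with a pseudocount of 0.25 CPM (-1.06), with no filter, with only those 2 groups and with the replicate block (-1.05 each), and with no filter Pdcd1 also lost the monoclonal Treg effect (1.79) and the comparison of non-Treg cells (-2.02).

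With 1 library left out, the monoclonal Treg effect of Cd28 ran from 0.39 to 0.47, the polyclonal Treg effects of Cd28, Icos and Pdcd1 from -0.49 to -0.14, 0.66 to 0.69 and 0.24 to 1.39, and the differences of Cd28, Pdcd1 and Btla from 0.58 to 0.92, 0.40 to 1.56 and -1.10 to -0.63. Between the mice, Pdcd1 in Treg cells ran from -1.62 to -0.47 and Btla in non-Treg cells from -0.60 to -0.48. Over all genes kept, the deviations of same-lettered replicates had correlations of -0.09 to 0.10 over 6 pairs of groups. These cannot show whether the letters mark a pairing. The 6 myeloid markers summed higher in replicate A in both monoclonal groups, at 924 and 226 CPM in Treg and 529 and 370 CPM in non-Treg libraries. The replicate block changed no call other than that of Pdcd1, with an adjusted p of 0.0556 by limma.

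Counts of genes past the threshold, in the order of the 5 comparisons, were 3143, 1018, 1185, 3116 and 2505. They ran from 1306 to 3774, 429 to 1231, 361 to 1658, 2416 to 3583 and 1373 to 3227 with 1 library left out. Scaled to the CD3 genes the first 4 were 6009, 524, 1933 and 1893, and with only the groups compared the polyclonal Treg effect gave 673 and the comparisons between the mice 1721 and 4413. Levels between genes rest on the listed transcript lengths: without division by length, Ctla4 to Cd28 averaged 2.78 in Treg and 0.502 in non-Treg cells of monoclonal mice, and 1.24 in Treg and 0.174 in non-Treg cells of polyclonal mice. Every member had at least 158 reads in each library, and the effect of depth on the calls was not tested.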

Other observations

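Around the chromosome 1 cluster, 5 other genes lie within 500 kb by the deposited positions and 4 were tested. In the monoclonal Treg effect 2 were higher, where 10.8% of all genes were. Raph1, which encodes the actin regulator lamellipodin, averaged 132 CPM in monoclonal Treg, against 40.1 CPM in monoclonal non-Treg libraries, a change of 1.75 ± 0.26 (limma, adjusted p = 0.000237). It averaged 52.2 CPM in polyclonal Treg and 44.9 CPM in polyclonal non-Treg libraries, a change of 0.17 ± 0.26 (adjusted p = 0.838), and the difference of the effects was 1.58 ± 0.37 (adjusted p = 0.0151). That difference lost its call by edgeR, when scaled to the CD3 genes (0.94, adjusted p = 0.189) and without monoclonal Treg replicate B, monoclonal non-Treg replicate A or polyclonal non-Treg replicate A (adjusted p up to 0.0917). Raph1 was also higher in monoclonal than in polyclonal Treg cells, at 1.37 ± 0.26 (limma, adjusted p = 0.00152). Cyp20a1, a cytochrome P450 family member, was higher in monoclonal Treg cells by 0.98 ± 0.28 (limma, adjusted p = 0.0194), a call lost scaled to the CD3 genes (adjusted p = 0.388) and without monoclonal Treg replicate A or either monoclonal non-Treg replicate (adjusted p up to 0.119). Abi2, another actin regulator, was lower in monoclonal non-Treg cells than in polyclonal ones, at -0.69 (limma, adjusted p = 0.0318), a call lost with TMM or CD3 scaling, by edgeR and without any 1 of the 4 non-Treg libraries.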
